A study of Caenorhabditis elegans with 6 samples.

Results

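The K2P potassium channel genes of Caenorhabditis elegans were compared between dopamine neurons and serotonin neurons by RNA-seq. A gene was counted as a member if its WormBase symbol was twk followed by a number, or was unc-58, egl-23 or sup-9. This rule found 47 members among the 47063 genes of the deposited tables. No measured value entered the rule, though the members were chosen with earlier results of these data known. The libraries were 3 labelled as dopamine neurons and 3 labelled as serotonin neurons, each in a column of its own. All 6 carry the same strain, FQ939, and the genotype WT, and the source material in both groups is given as embryos together with larvae. The sources used here do not say how the neurons were marked and collected. Nor does any label say that the 3 libraries of a group came from separate cultures, so the p-values below measure only a spread among libraries that may be technical.

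K2P channels are mostly potassium-selective leak channels. Each subunit carries a pair of pore loops, and subunits join in pairs around a single pore. Potassium-selective members let potassium out at rest and so hold the membrane potential negative. They set how much excitatory current a neuron or muscle needs to fire. The nematode family is large, and several members were first found through gain-of-function mutants with slack or uncoordinated movement. The dopamine neurons of this worm are ciliated touch cells that sense food texture, and its main serotonin neurons are the pharyngeal NSM and the chemosensory ADF cells.

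Reads recovered from the deposited normalized counts numbered 20418663 to 31559049 per library. A pair of libraries was rich in nuclear ribosomal RNA, dopamine 1 with 40.9% of its reads and serotonin 3 with 41.5%, where the remaining 4 had 7.53% to 13.7%. All 6 dopamine neuron markers were higher in the dopamine libraries, among them the dopamine transporter gene dat-1, and 3 of 5 tested serotonin neuron markers were lower there, including the tryptophan hydroxylase gene tph-1. Pharyngeal muscle markers stood apart. All 5 were lower in the dopamine libraries, where their normalized counts summed to 418 to 1052 per library, against 42645 to 83022 in the serotonin libraries, and none was at 0 in any library. Of 12 pan-neuronal genes 6 were higher and none lower in the dopamine libraries, with sums of 72074 to 111475 against 39080 to 58659. Touch receptor neuron markers were higher for 2 of 6 (1903 to 3487 against 1008 to 1345), and body-wall muscle markers went 1 each way of 5 (28856 to 49615 against 16774 to 25817). Most of the body-wall muscle sum was unc-54, and without it the other 4 summed to 3064 to 6137 in the dopamine libraries, against 6761 to 9334 in the serotonin libraries. Over all tested genes 3.16% were higher and 6.36% lower in the dopamine libraries. In bulk libraries such as these, fewer cells of a type and less RNA per cell cannot be told apart.

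Within the dopamine libraries several genes led the K2P transcripts, and mean levels of the 47 members ran from 30.6 FPKM down to 0.0267 FPKM. Levels of different genes are given as FPKM, which takes gene length into account. The leading gene was twk-2. It stood at 30.8, 20 and 41.1 FPKM in dopamine 1, 2 and 3 (30.6 ± 10.6, SD, n = 3), and at 3.96, 3.72 and 4.61 FPKM in serotonin 1, 2 and 3. After it came twk-31 at 24.1 ± 9.02 FPKM, twk-29 at 20.2 ± 8.79, twk-49 at 19.7 ± 0.623, twk-13 at 14 ± 4.6 and twk-3 at 12 ± 5.26 in the dopamine libraries. Neighbours in this order overlapped in their values across libraries. Within each dopamine library twk-2, twk-31, twk-29, twk-13 and twk-3 kept this order by FPKM. The place of twk-49 among them is not fixed by the data, and in dopamine 2 alone it came first. The gene lengths behind the FPKM of twk-49 and twk-29 were 0.579 and 0.649 of their annotated exon length, relative to the family's median ratio, and with annotated lengths twk-49 ranked 7 in place of 4. In the dopamine libraries 8 of 47 members averaged 10 FPKM or more, and 24 averaged 1 FPKM or more. Against 25 voltage-gated, calcium-gated and inward rectifier potassium channel genes, twk-2 ranked 5 of 72 in mean FPKM, behind the BK-type channel gene slo-1 at 75.5 FPKM.

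A single gene, twk-11, led the serotonin libraries. It stood at 2.22, 2.14 and 1.1 FPKM in dopamine 1, 2 and 3, against 111, 209 and 215 FPKM in serotonin 1, 2 and 3. Its mean of 178 ± 58.5 FPKM in the serotonin libraries was the highest of the 72 potassium channel genes and ranked 234 of 19635 protein-coding genes. In the dopamine libraries it ranked 39 of those 72. The KCNQ-type channel gene kqt-1 came next in the serotonin libraries at 65.6 FPKM. Among the K2P genes there, twk-49 followed at 20.8 ± 2.33 FPKM, twk-14 at 15.4 ± 7.1, twk-31 at 14 ± 2.15, twk-8 at 8.4 ± 3.78 and twk-29 at 7.89 ± 1.77. The values of twk-14 overlapped those of both twk-49 and twk-31, and the values of twk-8 and twk-29 overlapped each other. With annotated lengths twk-31 ranked 2, twk-14 ranked 3 and twk-49 ranked 4 among the K2P genes there. In the serotonin libraries 4 members averaged 10 FPKM or more, and 25 averaged 1 FPKM or more.

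**Figure D1:**
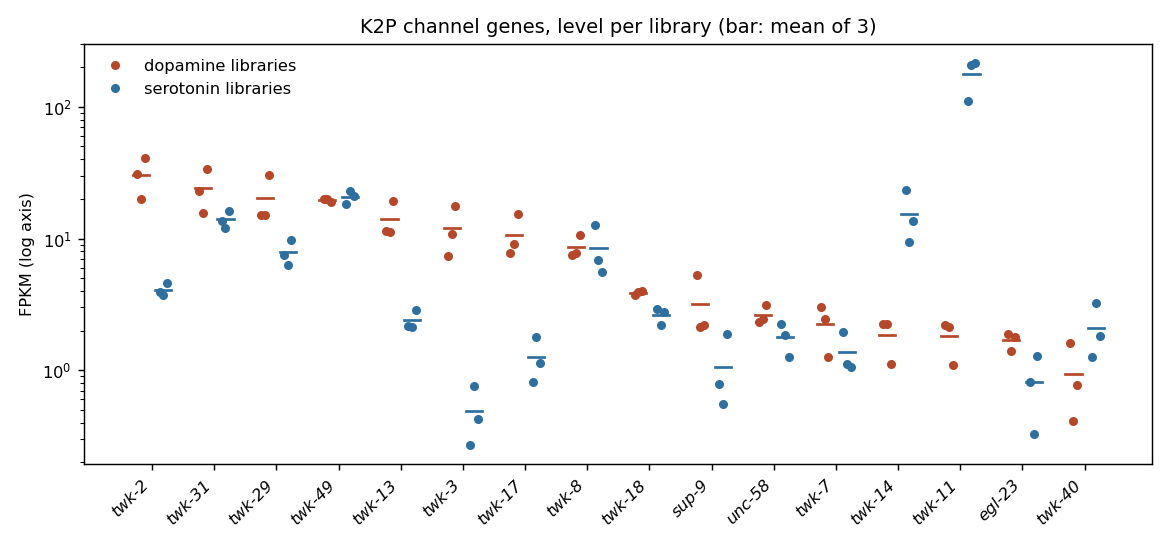
FPKM (log axis) of 16 K2P genes in each library, with the 3 dopamine libraries left of the 3 serotonin libraries for each gene and a bar at each mean. Genes run from the highest dopamine mean, twk-2 at 30.6 FPKM, downwards, and twk-11 is the only gene above 100 FPKM in any library.

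The make-up of the family differed accordingly, and a share within a library does not depend on how libraries were scaled to each other. As a share of the summed K2P FPKM, twk-11 took 1.18%, 1.36% and 0.453% in the dopamine libraries and 45.3%, 65.5% and 65.2% in the serotonin libraries. The share of twk-2 was 16.4%, 12.7% and 16.9% in the dopamine libraries, against 1.62%, 1.17% and 1.4% in the serotonin libraries. Neither gene's shares overlapped between the cell types. The large share of twk-11 lowers the shares of all other members in the serotonin libraries, so the contrast in the twk-2 share is partly that of twk-11. Beside the sums without twk-11, twk-2 stood at 30.8 of 185, 20 of 155 and 41.1 of 242 FPKM in dopamine 1, 2 and 3. In serotonin 1, 2 and 3 it stood at 3.96 of 134, 3.72 of 110.3 and 4.61 of 114.8 FPKM. The 5 leading members together held 55.4% of the mean sum in dopamine libraries (twk-2, twk-31, twk-29, twk-49 and twk-13) and 79.5% in serotonin libraries (twk-11, twk-49, twk-14, twk-31 and twk-8).

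**Figure D2:**
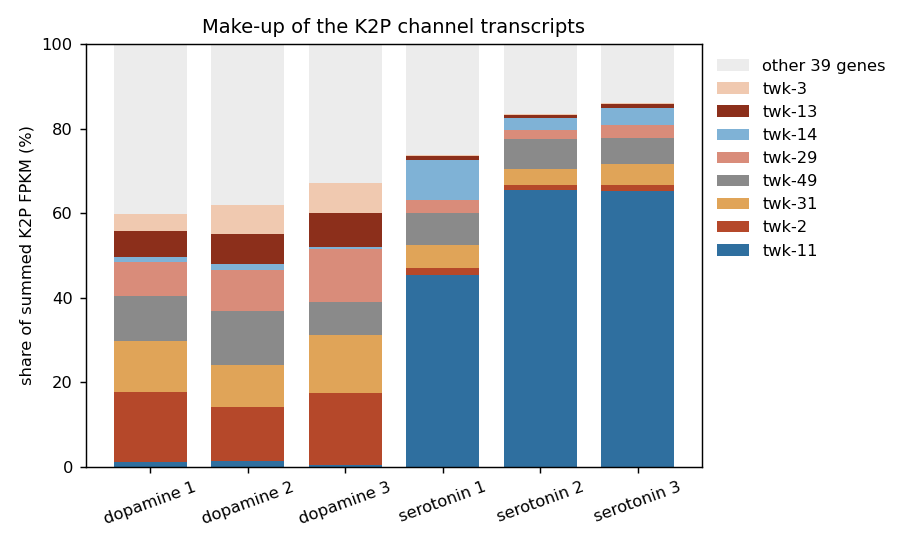
Share (%) of the summed K2P FPKM taken by 8 named genes and by the other 39 together, one stacked bar per library, with dopamine libraries on the left. The twk-11 segment is at most 1.36% in a dopamine library and at least 45.3% in a serotonin library.

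Summed over all 47 genes, K2P expression was 187, 157 and 243 FPKM in dopamine 1, 2 and 3, against 244, 319 and 330 FPKM in serotonin 1, 2 and 3. The highest dopamine library lay just under the lowest serotonin library, and the level was 1.53-fold lower in dopamine neurons (exact two-sided permutation test, p = 0.1, the smallest that 3 against 3 allows). Over only the members with at least 10 normalized counts in at least 3 libraries the groups overlapped. There dopamine 3 stood at 242.5 FPKM and serotonin 1 at 238.8 FPKM (exact permutation p = 0.2). Scaled to pan-neuronal genes the sums were 136, 138 and 128 in the dopamine libraries, against 361, 538 and 361 in the serotonin libraries, or 3.08-fold lower. Without twk-11 the direction turned round on the deposited scale. The other 46 genes summed to 185, 155 and 242 FPKM in the dopamine libraries and 134, 110.3 and 114.8 FPKM in the serotonin libraries, a 1.6-fold higher level in dopamine neurons (exact permutation p = 0.1). That direction did not hold when scaled to pan-neuronal genes, where the 46 genes summed to 134, 136 and 128 in the dopamine libraries, against 197, 186 and 126 in the serotonin libraries, 1.25-fold lower with overlapping groups (exact permutation p = 0.4). Without both twk-11 and twk-2 the dopamine libraries were 1.4-fold higher on the deposited scale. With twk-11 included, K2P genes made up 34.3% to 34.9% of the FPKM summed over all 72 potassium channel genes in the dopamine libraries and 43.8% to 52% in the serotonin libraries. The other potassium channel genes summed to 353, 301 and 454 FPKM in the dopamine libraries, against 313, 294 and 382 FPKM in the serotonin libraries. Set beside the sums of the 46 genes above, the K2P part without twk-11 was lower in the serotonin libraries.

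**Figure D3:**
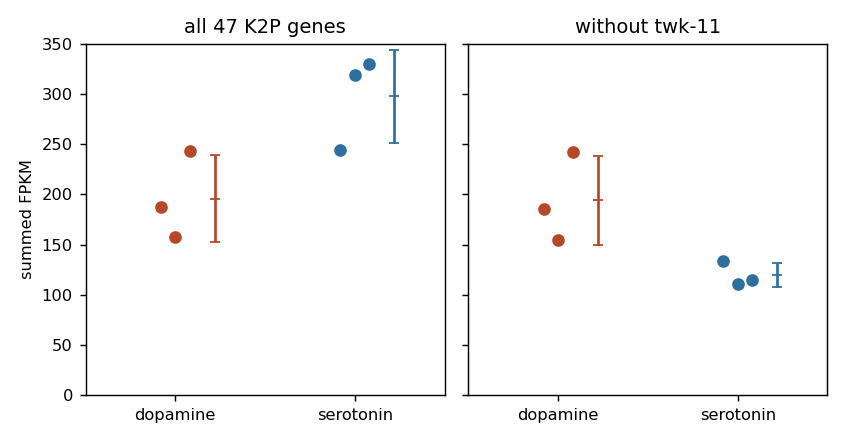
Summed FPKM per library, as deposited, for all 47 K2P genes (left panel) and without twk-11 (right panel), with mean and SD of 3 libraries beside the points and dopamine left of serotonin. The dopamine libraries lie at 157 to 243 FPKM in the left panel, below the serotonin libraries, and at 155 to 242 FPKM in the right panel, above them.

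Differences for single genes were tested by limma on log2(normalized count + 1), over the 15750 genes with at least 10 normalized counts in at least 3 libraries. Of the 47 members 36 were tested. Among them 5 were higher in dopamine neurons, or 13.9% of those tested, where 3.16% of all tested genes were called in that direction. Another 2 were lower, or 5.56%, where 6.36% of all tested genes were. By edgeR and by DESeq2 on recovered reads the same 5 and 2 genes were called, where 2.57% and 4.52% of all tested genes were higher and 4.75% and 8.44% lower. Groups of libraries did not overlap for 10 members with dopamine above (12.3% of all tested genes) and for 4 with dopamine below (15.1%). The median log2 fold change was 0.05 over the tested members and -0.07 over all tested genes, with 18 members above 0 and 18 below. One member, twk-22, passed the count filter through the serotonin libraries alone, which fixed its direction beforehand. It is among the 4 with dopamine below.

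The 5 genes higher in dopamine neurons were twk-2, twk-3, twk-13, twk-17 and twk-29. The steepest contrast was at twk-3 (WBGene00006658, chromosome II, 8210584 to 8212780, minus strand). It had 191, 279 and 457 normalized counts in dopamine 1, 2 and 3, against 7.08, 19.5 and 11.1 in serotonin 1, 2 and 3. These serotonin values rest on only 18, 39 and 9 reads, and the 23.1-fold difference has a 95% interval of 3.26 to 5.8 on the log2 scale, around a log2 fold change of 4.53 (limma adjusted p = 4.24e-04, SE 0.58). The gene twk-17 (WBGene00006671, chromosome X, 7599806 to 7608082, minus strand) had 530, 625 and 1053 normalized counts in the dopamine libraries, against 56.6, 123 and 78.6 in the serotonin libraries. Its lowest dopamine library lay far above its highest serotonin library, and it was 8.51-fold higher (limma adjusted p = 4.82e-04, log2 fold change 3.09 with SE 0.40).

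For twk-2 (WBGene00006657, chromosome II, 4441103 to 4453151, minus strand) the normalized counts were 3506, 2274 and 4686 in dopamine 1, 2 and 3, against 451, 423 and 525 in serotonin 1, 2 and 3. The serotonin libraries were nearly level, while dopamine 3 was about double dopamine 2, and no values overlapped. The gene was 7.18-fold higher in dopamine neurons (limma adjusted p = 9.91e-05, log2 fold change 2.84 with SE 0.30), with 428 reads or more in every library. The gene twk-13 (WBGene00006668, chromosome V, 12320170 to 12337994, minus strand) had 642, 623 and 1077 normalized counts in the dopamine libraries, against 121, 119 and 161 in the serotonin libraries. Dopamine 3 was again the highest, and the gene was 5.66-fold higher in dopamine neurons (limma adjusted p = 5.95e-04, log2 fold change 2.5 with SE 0.34).

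The smallest of these differences was at twk-29 (WBGene00006681, chromosome I, 9463751 to 9468898, plus strand). It had 550, 549 and 1101 normalized counts in the dopamine libraries, against 272, 230 and 356 in the serotonin libraries, with dopamine 3 at about double the other dopamine libraries. It was 2.46-fold higher (log2 fold change 1.3 with SE 0.35, limma adjusted p = 0.0375), and over the alternatives its adjusted p ran from 0.00272 to 0.432. The call was lost without dopamine 3, serotonin 1 or serotonin 2 (log2 fold change 0.96, 1.27 and 1.15, limma adjusted p = 0.16, 0.0917 and 0.129), and without dopamine 1 and serotonin 3 together (1.63, adjusted p = 0.0606).

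All 5 genes were highest in dopamine 3, the library whose pan-neuronal genes stood highest. With libraries scaled to the pan-neuronal genes, the median of all tested genes moved to -1.07 and that of the K2P genes to -0.96. On that scale 0.914% of all tested genes were higher and 22.8% lower, and 4 of the 5 were still called, with log2 fold changes of 3.52 for twk-3, 2.08 for twk-17, 1.84 for twk-2 and 1.49 for twk-13 (limma adjusted p = 0.00465, 0.0104, 0.00141 and 0.0093). The twk-29 gene was not (log2 fold change 0.29, limma adjusted p = 0.432). There 5 members were lower, with twk-22, twk-43 and twk-49 added, the direction of twk-22 being fixed by the count filter. Scaled to pan-neuronal genes, twk-2 stood at 2539, 1994 and 2474 in the dopamine libraries, against 666, 714 and 575 in the serotonin libraries, so the spread within the dopamine group became smaller.

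**Figure D4:**
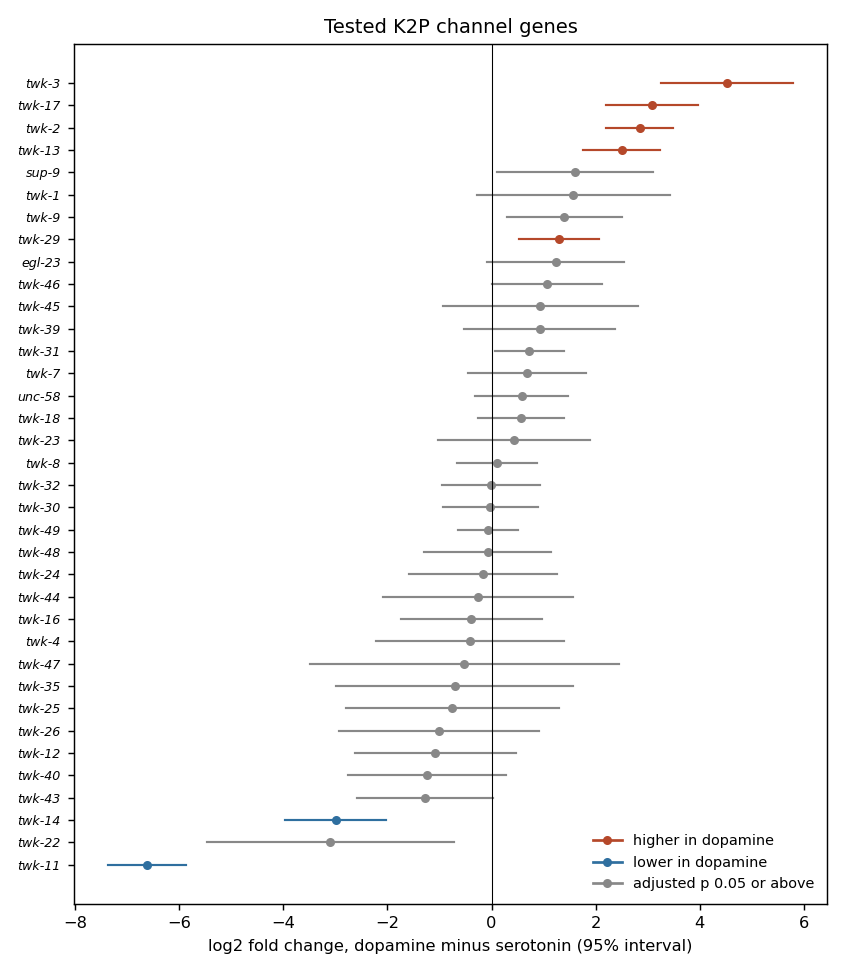
Log2 fold change (dopamine minus serotonin, x axis) with its 95% interval for the 36 tested K2P genes, ordered by size. Red marks the 5 genes higher in dopamine neurons and blue the 2 lower, twk-11 at -6.62 and twk-14 at -3, and intervals widen for genes with few counts such as twk-22 and twk-47.

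The 2 genes lower in dopamine neurons were twk-11 and twk-14, both on chromosome V. For twk-11 (WBGene00006666, 7028258 to 7036575, minus strand) the normalized counts were 287, 276 and 141.8 in dopamine 1, 2 and 3, against 14316, 27018 and 27802 in serotonin 1, 2 and 3. The groups lay far apart, and the fitted difference was 98.1-fold (limma adjusted p = 5.86e-07, log2 fold change -6.62 with SE 0.35). Serotonin 1 stood well below the other serotonin libraries. For twk-14 (WBGene00006669, 12387039 to 12395706, minus strand) they were 86.5, 86.7 and 42.8 in the dopamine libraries, against 896, 363 and 523 in the serotonin libraries. Here serotonin 1 was the highest, the reverse of twk-11, and the gene was 7.98-fold lower in dopamine neurons (limma adjusted p = 0.00114, log2 fold change -3 with SE 0.44).

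Pharyngeal muscle genes moved in the same direction as these 2 channels. The pharyngeal myosin gene myo-2 had 179, 218 and 109 normalized counts in the dopamine libraries, against 13545, 11891 and 28020 in the serotonin libraries, a 101-fold difference beside the 98.1-fold of twk-11. The other 4 pharyngeal muscle markers were 23.6-fold to 106-fold lower in the dopamine libraries. Within the serotonin libraries, myo-5 and tni-4 were lowest in serotonin 1 and highest in serotonin 3, as was twk-11, while myo-1, myo-2 and tnc-2 were lowest in serotonin 2. The part of pharyngeal muscle RNA in the twk-11 and twk-14 results was not tested.

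**Figure D5:**
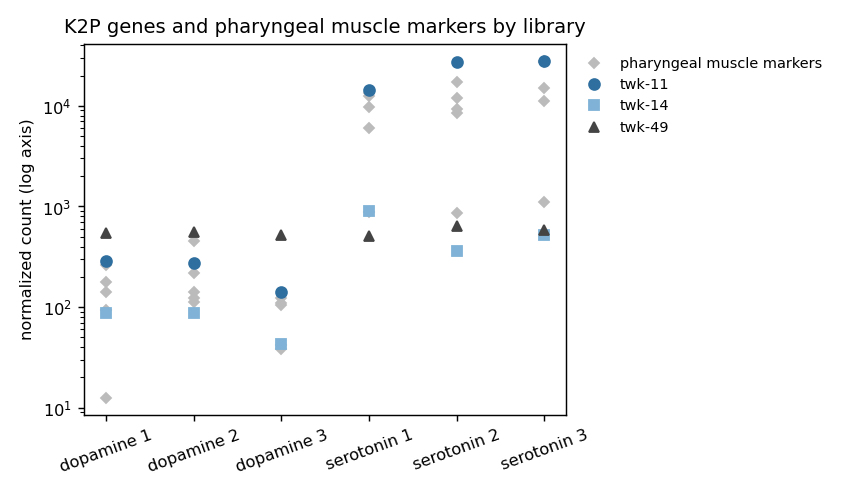
Normalized counts (log axis) of twk-11, twk-14, twk-49 and 5 pharyngeal muscle marker genes (grey diamonds) in each library, dopamine libraries on the left. For each of these markers and for twk-11 every dopamine library stands below every serotonin library, while twk-49 stays between 505 and 633 in every library.

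Among the 29 tested genes that were not called, adjusted p ran from 0.106 to 0.995 (limma). The flattest abundant member was twk-49, at 550, 553 and 522 normalized counts in dopamine 1, 2 and 3, against 505, 633 and 578 in serotonin 1, 2 and 3. Its log2 fold change of -0.07 had a 95% interval of -0.65 to 0.51, while scaling to pan-neuronal genes moved it to -1.08 (limma adjusted p = 0.0445). Part of its annotated exon sequence, 27.4%, overlaps genes on the other strand. The twk-8 gene had 426, 438 and 599 normalized counts in the dopamine libraries, against 720, 391 and 318 in the serotonin libraries, which overlapped. The interval of its log2 fold change was -0.66 to 0.87, and those of twk-30 and twk-32 were -0.93 to 0.88 and -0.95 to 0.94.

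Further members passed with the replicate number as a block. Then 7 members were higher and 3 lower in dopamine neurons, where 6.78% and 11.7% of all tested genes were. The added ones were twk-31 at 1957, 1349 and 2881 normalized counts in the dopamine libraries, against 1167, 1028 and 1393 in the serotonin libraries (blocked limma adjusted p = 0.0218, and 0.178 without the block), twk-46 (blocked limma adjusted p = 0.0419, and 0.22 without) and twk-22, lower in dopamine neurons (blocked limma adjusted p = 0.0326, and 0.106 without). The twk-22 gene had 6.25, 8.72 and 0 normalized counts in the dopamine libraries, against 51.9, 35 and 22.1 in the serotonin libraries. By edgeR with the block, where 4.88% of all tested genes were higher and 7.51% lower, twk-31 alone of these 3 passed (adjusted p = 0.0453). Its log2 fold change of 0.73 became -0.28 under the pan-neuronal scaling.

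The 6 other members known from mutant studies, sup-9, egl-23, twk-18, unc-58, twk-7 and twk-40, did not pass the test in either direction. The gene sup-9, whose channel acts with the proteins of unc-93 and sup-10 to relax muscle when hyperactive, had 124, 50.1 and 52.5 normalized counts in the dopamine libraries, against 18.5, 13 and 44.2 in the serotonin libraries. Its groups did not overlap, but dopamine 1 was far above the other dopamine libraries (log2 fold change 1.6, 95% interval 0.1 to 3.09, limma adjusted p = 0.191). The gene egl-23, in which overactive mutants retain eggs, had 99, 73.6 and 94.1 normalized counts in the dopamine libraries, against 42.9, 17 and 67.5 in the serotonin libraries (log2 fold change 1.24, limma adjusted p = 0.254). For twk-18, whose overactive mutants are paralysed through body-wall muscle, the values were 161, 168 and 171 in the dopamine libraries, against 125, 95 and 119 in the serotonin libraries. The dopamine values of twk-18 were nearly level and all above its serotonin values (log2 fold change 0.56, limma adjusted p = 0.419). The part of body-wall muscle RNA in its level was not tested.

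The unc-58 gene, named for uncoordinated mutants, stood at 139, 144 and 185 normalized counts in the dopamine libraries, against 133, 109.5 and 74.9 in the serotonin libraries (log2 fold change 0.58, limma adjusted p = 0.45). Values overlapped for twk-7, a gene that restrains locomotion, at 149, 121 and 61.5 in the dopamine libraries, against 95.5, 54.5 and 51.6 in the serotonin libraries. They also overlapped for twk-40, which sets the resting potential of premotor interneurons, at 49, 12.5 and 23.5 in the dopamine libraries, against 38.1, 98 and 55.2 in the serotonin libraries. These genetically known members all averaged under 4 FPKM in both cell types, well below the leading genes twk-2 and twk-11.

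Of the other members with non-overlapping groups, twk-9 had 98, 199.5 and 124 normalized counts in the dopamine libraries, against 48.8, 34.5 and 74.9 in the serotonin libraries (log2 fold change 1.4, limma adjusted p = 0.117). The twk-43 gene had 54.2, 17.4 and 47.7 in the dopamine libraries, against 123, 85 and 65.1 in the serotonin libraries (log2 fold change -1.28, limma adjusted p = 0.236). Replicates disagreed most for low members. The twk-35 gene had 142.3 normalized counts in serotonin 1 and 7.84 to 47.9 in the other 5 libraries. The twk-47 gene had 46.9, 2.72 and 4.83 in the dopamine libraries, against 41.3, 31.5 and 1.23 in the serotonin libraries. The 11 untested members were twk-5, twk-6, twk-10, twk-20, twk-21, twk-28, twk-33, twk-34, twk-36, twk-37 and twk-42. None of these 11 exceeded 43.6 normalized counts or 111 reads in any library. With no count filter they were tested too, and limma called none of them (adjusted p = 0.249 to 0.968), with 1 at an unadjusted p under 0.05.

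By position, the members lie on all 6 nuclear chromosomes, with 14 on chromosome V and 11 on chromosome X (WBcel235, Ensembl gene models matched by gene identifier). Their annotated spans run from 1.8 to 28.6 kb, the longest being unc-58. On the minus strand of chromosome V, twk-24, twk-13 and twk-14 are successive members but not adjacent genes. Between twk-24 and twk-13 lie 50.8 kb and 13 coding genes, and between twk-13 and twk-14 49 kb and 12 coding genes. Of these members, twk-13 was 5.66-fold higher and twk-14 7.98-fold lower in dopamine neurons. The twk-24 gene had 122, 44.1 and 36.8 normalized counts in the dopamine libraries, against 136, 46.5 and 44.2 in the serotonin libraries. Another run on chromosome V, twk-33, twk-42 and twk-36, holds 3 genes 11 to 12.4 kb apart, with 1 coding gene in each gap. None of these 3 members reached the count filter. On chromosome X twk-21 and twk-22 are 2.3 kb apart with no coding gene between them, and both were at 8.72 normalized counts or less in every dopamine library.

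Proteins that act with K2P channels or against them were looked at beside the family. Neither tested SUP-9 partner gene was called. The sup-18 gene had 54.2, 147 and 42.2 normalized counts in the dopamine libraries, against 158, 125.5 and 89.6 in the serotonin libraries (log2 fold change -0.79). The unc-93 gene had 47.9, 9.26 and 47.1 normalized counts in the dopamine libraries, against 145, 150.5 and 81 in the serotonin libraries (log2 fold change -2.08, limma adjusted p = 0.0842, range 0.015 to 0.261). Singled out after its values were seen, unc-93 passed with the replicate block (adjusted p = 0.032) and by DESeq2 (0.0443), but not by edgeR with the block (0.107). The sup-10 gene was below the filter, at 0.6 to 13.8 normalized counts in all libraries. The sodium leak channel complex carries the inward leak that potassium-selective K2P channels oppose. Of its genes, 2 of 4 tested were higher in dopamine neurons, where 3.16% of all tested genes were. They were unc-80 at 3.39-fold and unc-79 at 3.15-fold (limma adjusted p = 0.00168 and 0.00371). The median log2 fold change was 1.35 over the 4 tested genes, against -0.07 over all tested genes. Another gene listed for the complex, nca-1, was not found by symbol and so was not looked at. With the replicate block all 4 tested genes passed, where 6.78% of all tested genes were higher. With scaling to pan-neuronal genes none did, where 0.914% were higher. Of 25 other potassium channel genes 4 were higher and 10 lower in dopamine neurons, with a median log2 fold change of -0.53. Over all tested genes 3.16% were higher and 6.36% lower. The lower count was 6 without dopamine 3, and 4, 5 and 3 without serotonin 1, 2 and 3. Scaled to pan-neuronal genes it was 14, where 22.8% of all tested genes were lower. The largest differences were at the small-conductance calcium-activated channel gene kcnl-1, 8-fold lower, at kqt-3 of the KCNQ family, 7.85-fold lower, and at the Shaw-type gene shw-1, 7.48-fold higher (limma adjusted p = 6.46e-04, 0.0288 and 3.55e-04).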

How the data were processed

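RNA-seq values of 3 dopamine and 3 serotonin neuron libraries were used. Per the labels' protocols, nanogram amounts of PicoPure-extracted RNA went into Ovation RNA-seq libraries. Per the submitters' processing notes, STAR, HTSeq and DESeq2 were used, with roles and versions unstated. The sources used here give no build and no strandedness. The authors deposited normalized counts, a signal of reads divided by 1 size factor per library, from which whole reads were recovered (at least 99.9891% of values above 0 within 0.02 of a whole number). The authors deposited FPKM values whose ratio to the normalized count was constant across libraries (largest CV 2.8e-04 over 2033 genes). FPKM gene lengths were within 10% of the annotated WBcel235 exon union, relative to the family's median ratio, for 32 of 47 members, and 0.579 and 0.649 of it for twk-49 and twk-29. Unstranded counting could mix genes with antisense neighbours, and of the exons of twk-4 69.3% overlap a same-strand gene.

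Genes with at least 10 normalized counts in at least 3 libraries were tested by limma 3.58.1 (trend, robust) in R 4.3.3 on log2(normalized count + 1), with Benjamini-Hochberg adjustment over all tested genes and a threshold of 0.05, after a check on simulated data. Alternatives on the recovered reads used DESeq2 1.42.0 and edgeR 4.0.16. Same-numbered libraries deviated together (correlations 0.433, 0.173 and 0.28), which is a pairing seen in the data and not given by the labels. The main test used no block, and the replicate number entered as a block only in alternatives. Genes given with all values were those called, the 6 highest by FPKM in either cell type and 7 studied by genetics or as named channels. Other members named with values were chosen after those were seen. Members and lists were chosen with earlier results of these data known.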

Additional observations from a re-analysis of the deposited data

How the results depend on the processing

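Over 20 alternatives, which changed the pseudocount, the filter, the scaling, the tool, the block or the libraries, 4 to 7 K2P genes were higher in dopamine neurons (4 to 5 when 1 library was left out), against 5 as reported. The genes twk-2, twk-3, twk-13 and twk-17 were called in each of them, and so were twk-11 and twk-14 in the opposite direction. The count of lower genes was 2 with any 1 library left out. It was 5, twk-22 included, when scaled to pan-neuronal genes, where 22.8% of all tested genes were lower. Of 319 values for 16 named genes under these alternatives none changed sign where it was called, 8 lost the call, all at twk-29, and 3 gained it. Another 10 changed sign without a call, at twk-7, twk-8, twk-18, twk-31, twk-49 and unc-58. One of these, twk-31, was called with the replicate block and stood at -0.28 when scaled to pan-neuronal genes. The median of the K2P genes was 0.67 with a filter of 50, 0.51 after quantile normalization, -0.96 scaled to pan-neuronal genes, and 0.101 to 0.38 with 1 library left out. The summed level (log2, dopamine minus serotonin, -0.61) was 0.68 without twk-11 and 0.49 without twk-11 and twk-2, -1.62 scaled to pan-neuronal genes, -1.39 as a share of protein-coding reads, and -0.78 to -0.47 with 1 library left out. Over the tested members alone it was -0.61 with overlapping groups (exact permutation p = 0.2). In checks added after the data were seen, the sum without twk-11 was -0.33 scaled to pan-neuronal genes, 0.52 scaled to ribosomal protein genes, and 0.51 to 0.83 with 1 library left out. Without 1 library the share of twk-2 in the dopamine libraries was 14.6% to 16.7%, and that of twk-11 in the serotonin libraries 55.3% to 65.3%. The replicate block gave the same summed level of -0.61 (exact sign-flip permutation p = 0.25, the smallest it allows). It gave counts of 7 higher and 3 lower, with twk-22 among the lower.

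Among K2P partners 1 was lower by DESeq2, with the replicate block and when scaled to pan-neuronal genes, against 0 as reported (0 with 1 library left out). In these settings 8.44%, 11.7% and 22.8% of all tested genes were lower. The sodium leak count was 4 with the replicate block (6.78% of all tested genes higher) and 0 when scaled to pan-neuronal genes (0.914% higher). Other potassium channels higher in dopamine neurons numbered 2 when scaled to pan-neuronal genes, where 0.914% of all tested genes were higher. Those lower numbered 14 on that scale (22.8% of all tested genes lower), against 10 as reported (6.36%). They numbered 6 by FPKM and by edgeR (4.75% by edgeR), and 3 without the 2 ribosomal RNA-rich libraries. With 1 library left out they numbered 3 to 9 (dopamine 3 gave 6, and serotonin 1, 2 and 3 gave 4, 5 and 3). The cause was not tested. Few reads lay behind the 11 untested members and the serotonin level of twk-3.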

Other observations

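Markers of cells other than those described gave few calls. None of the tested markers passed for cholinergic neurons (4 tested), intestine (2), hypodermis (2), glia (3) or the germline (2), and of 3 GABA neuron markers the homeobox gene unc-30 was lower in dopamine neurons (limma adjusted p = 0.0236, range 0.00239 to 0.153). The sums of GABA neuron markers were 491 to 757 normalized counts in the dopamine libraries and 728 to 1264 in the serotonin libraries. Without unc-30 the other 2, unc-25 and unc-47, summed to 279 to 376 in the dopamine libraries and 129 to 144 in the serotonin libraries.

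As a share of protein-coding reads, the K2P genes took 0.0984%, 0.0744% and 0.108% in dopamine 1, 2 and 3, against 0.203%, 0.271% and 0.257% in serotonin 1, 2 and 3. Without twk-11 they took 0.0959%, 0.072% and 0.107% in the dopamine libraries, against 0.0613%, 0.0423% and 0.0419% in the serotonin libraries. When the level of each member was taken as normalized counts per kilobase of the annotated exon union in place of the deposited FPKM, a choice made after the data were seen, twk-2, twk-31 and twk-29 still led in that order in the dopamine libraries, and twk-49 moved to 7 there, where it was 4 by FPKM. In the serotonin libraries twk-49 moved to 4, behind twk-11, twk-31 and twk-14, where it was 2 by FPKM. Per annotated kilobase twk-11 held 0.501% to 1.54% of the family in the dopamine libraries and 49.1% to 69.4% in the serotonin libraries.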
